A study of Mus musculus with 4 samples.

Results

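The collagen chain genes were examined on arrays from a mouse ovarian cancer cell line, BR5FVB1-Akt, grown with or without decitabine. A gene was a member when the platform gave its array row a single symbol made of Col, a number, the letter a and a number, and 44 of the 22180 genes tested met this rule. Of these, 11 encode fibril-forming chains, 6 encode the type IV chains of basement membranes and 27 encode other chains. The controls were 2 arrays of untreated BR5FVB1-Akt cells, and the treated group was 2 arrays of the same line given 10 uM decitabine, with 72 h of culture. Decitabine is a cytidine analogue that is built into replicating DNA, where it traps DNA methyltransferases and so lowers DNA methylation. Samples of a group are labelled as biological replicates, and the culture behind each is not described, so p-values measured only the spread between these arrays, which may be technical.

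Collagens are extracellular proteins in which alpha chains wind into a triple helix. Fibrillar chains such as those of types I and III are made as procollagens, trimmed outside the cell and cross-linked into the fibrils that give tissue its tensile strength. Type IV chains form the sheet-like network of basement membranes, and the remaining families decorate fibrils, form beaded filaments or fine networks, anchor epithelia or span the plasma membrane. In the ovary and its tumours, collagens are mostly known as products of stromal cells, although tumour cells can make them too.

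From their range, the deposited values were taken to be on a log2 scale, and each fold change rests on that reading. Probe sets of different genes do not report on a common scale, so levels are compared below mainly between arrays. Where a gene is called dim or placed by its level among all genes, that placing is rough. Replicate arrays correlated at 0.995 (control) and 0.993 (decitabine) across all genes, which are not independent replicates, and arrays of different groups at 0.990 to 0.991. Among markers of the labelled tissue, the mesothelial and ovarian transcription factor gene Wt1 lay at 10.78 and 10.86 on the control arrays. The keratin genes Krt18 and Krt19 of epithelia read 9.25 and 9.22, and 8.54 and 8.51, on those arrays. Dimmer there were the epithelial adhesion gene Epcam, at 4.68 and 4.62, and the Müllerian transcription factor gene Pax8, at 3.50 and 3.46. No background level could be set, so it cannot be said whether such dim genes were expressed.

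No collagen chain passed the test of decitabine against control over all genes, and the differences went both ways. Of the 44 chains, 25 had a positive difference (decitabine minus control, in log2 units) and 19 a negative one, where 50.7% of all genes were positive, with a median of 0.03 beside 0.0040 over all genes tested. In limma, 0 chains had a Benjamini-Hochberg adjusted p under 0.05 in either direction, where 0.131% of all genes were called higher and 0.0135% lower. Before adjustment, 5 chains (11.4%) were higher with p under 0.05 and 4 (9.09%) lower, against 7.34% and 6.97% of all genes. The 5 were Col8a1, Col12a1, Col28a1, Col25a1 and Col10a1, and the 4 were Col6a1, Col6a2, Col4a5 and Col4a6. These counts moved when single arrays were left out. The shares of all genes at that threshold were not computed for such fits. When the variance model followed the intensity of the gene, 2 chains passed as higher (Col8a1 and Col12a1) and 3 as lower (Col6a1, Col6a2 and Col4a5), where 3.68% of all genes passed as higher and 3.6% as lower. These are bulk samples, so fewer cells of a type and less RNA per cell cannot be told apart.

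Both decitabine arrays lay above both control arrays for 9 chains (20.5%) and below both for 11 (25%), where the shares over all genes were 23.4% and 22.5%. The arrays of the groups overlapped for the remaining 24. By class, fibrillar chains had a median difference of 0.02 with 3 chains separated upward and 4 downward. Basement membrane chains had a median of −0.09 with 0 upward and 3 downward, and the other chains one of 0.05 with 6 upward and 4 downward. The medians of these classes lay close to that of all genes, and the signs of the fibrillar and other medians depended on single arrays. The fibrillar median was −0.03 when control replicate 2 or decitabine replicate 2 was left out and −0.05 when decitabine replicate 1 was, and it was −0.0087 with the arrays centred on their medians. The median of the other chains was 0.19 when decitabine replicate 1 was left out and −0.04 when replicate 2 was. The basement membrane median was −0.15 without decitabine replicate 1 and −0.0043 when the multiplexin chains Col15a1 and Col18a1 were counted in that class.

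**Figure D1:**
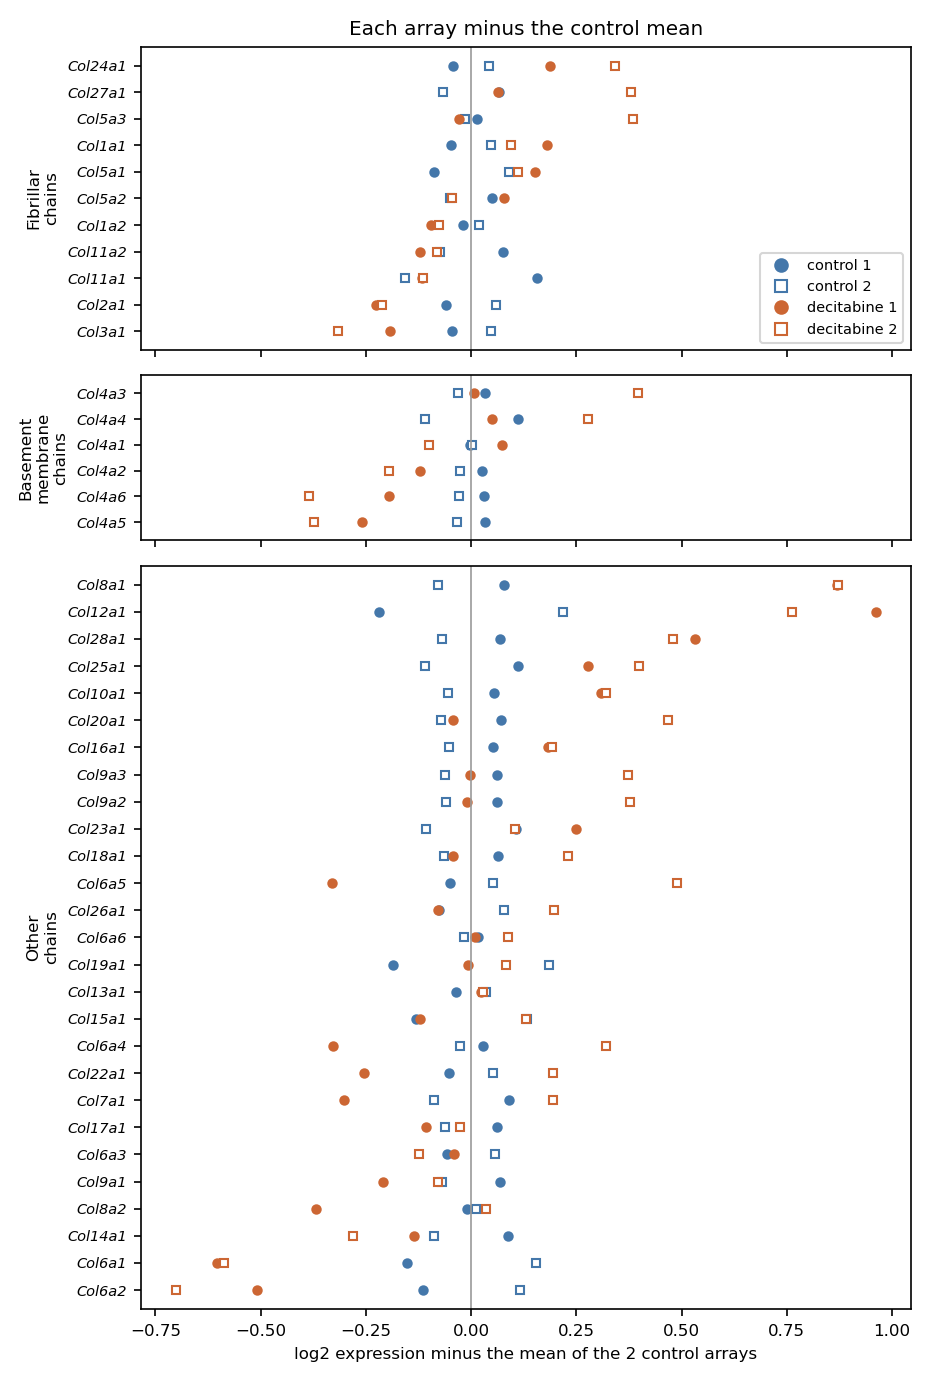
Each chain's value on the 4 arrays minus the mean of its 2 control arrays (x axis, log2 units), with control arrays in blue, decitabine arrays in orange, and replicate 1 as filled circles and replicate 2 as open squares. Most chains lie within 0.5 of their control mean on every array, while Col8a1 and Col12a1 stand to the right and Col6a1 and Col6a2 to the left.

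**Figure D2:**
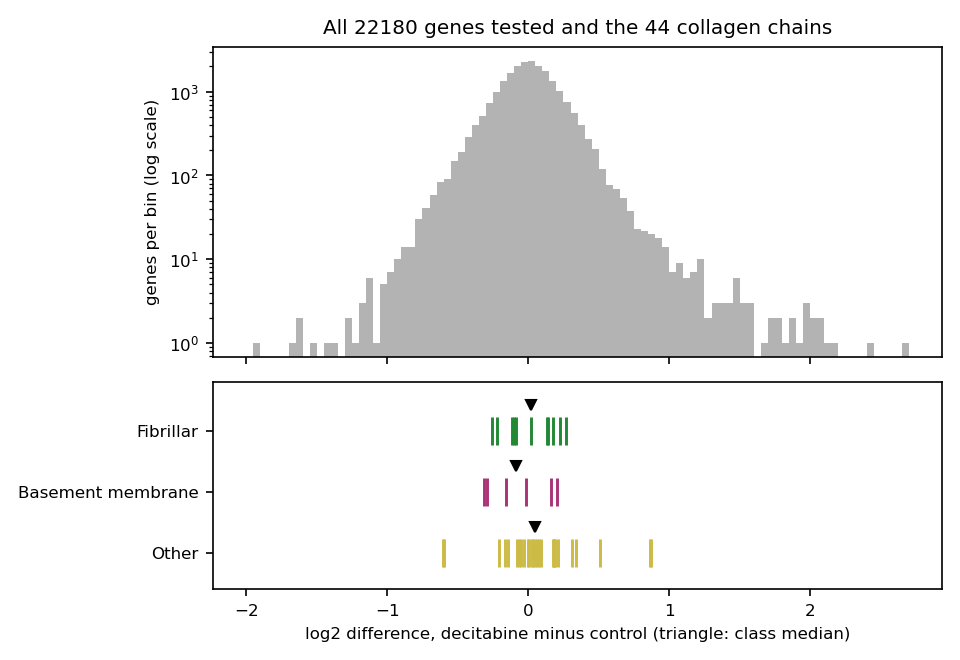
The upper panel counts all 22180 genes by their log2 difference, decitabine minus control (x axis), on a log scale, and the lower panel marks the 44 chains by class with a triangle at each class median. The chains span −0.60 to 0.87, inside the range of all genes, and the class medians of −0.09, 0.02 and 0.05 sit near 0.

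Among the fibrillar chains, the major type I pair stayed close to its control level. Col1a1 (array row 17255260, chromosome 11), which encodes the chain that outnumbers its partner in each type I molecule, read 10.24 and 10.33 in control and 10.47 and 10.38 with decitabine. Its decitabine arrays lay above both controls by a small margin, with a difference of 0.14 ± 0.10 (limma SE, 2 arrays per group, adjusted p = 0.615). Col1a2 (row 17455801, chromosome 6), the partner chain, read 10.17 and 10.21 in control and 10.09 and 10.11 with decitabine. Here both decitabine arrays were the lower ones, by −0.09 ± 0.10 (adjusted p = 0.746). A further Col1a2 row gave −0.11. The partner chains thus had differences of opposite sign, each smaller than 1.5 times its standard error.

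Type III collagen, which forms homotrimers and co-assembles with type I in elastic tissues, had the lowest difference of the fibrillar class. Its gene Col3a1 (row 17212461, chromosome 1) read 9.24 and 9.33 in control and 9.09 and 8.97 with decitabine. The groups did not overlap, and the difference was −0.25 ± 0.11 (adjusted p = 0.374; 0.0573 with the intensity trend). Col5a2, its immediate neighbour among protein-coding genes and a chain of the type V collagen that starts fibrils, was at 0.02 ± 0.11.

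The remaining type V chains were at 0.13 ± 0.11 for Col5a1 and 0.18 ± 0.16 for Col5a3. A second, dimmer Col5a1 row gave −0.0080. The cartilage fibril genes Col2a1 (−0.22 ± 0.10), Col11a1 (−0.12 ± 0.14) and Col11a2 (−0.10 ± 0.11) were all negative. Col24a1 (0.26 ± 0.11) and Col27a1 (0.22 ± 0.14), fibrillar chains of vertebrate bone and cartilage, had the highest differences of the class. For all 11 fibrillar chains the 95% confidence interval lay inside a 2-fold change, and for 9 of them it lay inside a 1.5-fold change.

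Type IV chains are encoded in head-to-head pairs, and the X-linked pair had the lowest differences of the class. Col4a5 (row 17538222, chromosome X), a chain of specialised and smooth muscle basement membranes, read 8.54 and 8.47 in control and 8.24 and 8.13 with decitabine. Its partner Col4a6 (row 17544969) read 6.76 and 6.70 in control and 6.53 and 6.35 with decitabine. Neither gene's groups overlapped, with differences of −0.32 ± 0.10 (adjusted p = 0.289) and −0.29 ± 0.11 (adjusted p = 0.349), and Col4a5 passed with the intensity trend (adjusted p = 0.0328).

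The ubiquitous type IV chains differed less. Col4a1 (row 17507377, chromosome 8) read 9.39 and 9.40 in control and 9.47 and 9.29 with decitabine, so that the control arrays lay between the treated ones, with a difference of −0.01 ± 0.11 (adjusted p = 0.972). That sign turned to 0.07 without decitabine replicate 2. Col4a2 (row 17498962), which shares the bidirectional promoter with Col4a1, read 9.21 and 9.16 in control and 9.06 and 8.99 with decitabine, a difference of −0.16 ± 0.10 (adjusted p = 0.535). The kidney and lung chains Col4a3 (0.20 ± 0.16) and Col4a4 (0.16 ± 0.14), a neighbouring pair on chromosome 1, had overlapping groups. In both of them decitabine replicate 2 was the highest array, at 4.74 and 4.81, while decitabine replicate 1 lay among the controls.

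The largest positive differences belonged to chains outside both of these classes. Col8a1 (row 17331162, chromosome 16) encodes a short chain of the hexagonal network beneath endothelia and of remodelling vessel walls. It read 5.51 and 5.35 in control and 6.30 and 6.30 with decitabine. The treated arrays were nearly equal and well above both controls, and the difference of 0.87 ± 0.11 corresponds to 1.83-fold (95% confidence interval 0.60 to 1.14, adjusted p = 0.0855). It was the smallest adjusted p of the chains. The call was made with the intensity trend (adjusted p = 0.00224), when genes below the 25th percentile of level were dropped before the fit (0.0336) and when the fit kept genes above the median level alone (0.00514). Its partner in type VIII collagen, Col8a2, was at −0.17 ± 0.16.

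Col12a1 (row 17529099, chromosome 9) encodes a fibril-associated collagen with interrupted triple helices, a family known as FACIT, found along type I fibrils in tissue under tension. It read 5.02 and 5.45 in control and 6.20 and 5.998 with decitabine. The treated arrays were the higher ones although the controls were 0.44 apart, and the difference was 0.86 ± 0.18, or 1.82-fold (interval 0.41 to 1.32, adjusted p = 0.170; 0.0105 with the intensity trend and 0.0239 among genes above the median level). Without one array at a time it ranged from 0.64 to 1.08.

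Col28a1 (row 17464738, chromosome 6), a chain best known from peripheral nerve, read 4.08 and 3.94 in control and 4.54 and 4.49 with decitabine, a difference of 0.51 ± 0.11 (adjusted p = 0.170; 0.125 with the intensity trend). Col25a1, a membrane-spanning chain first described in amyloid plaques of the brain, read 4.77 and 4.55 in control and 4.94 and 5.06 with decitabine (0.34 ± 0.12, adjusted p = 0.327). Col10a1, the network-forming chain of hypertrophic cartilage, read 3.67 and 3.56 in control and 3.92 and 3.93 with decitabine (0.31 ± 0.10, adjusted p = 0.280). The groups of these genes did not overlap. Their levels were dim, and Col10a1 was the 1 chain of the 44 below the 25th percentile of level.

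The largest negative differences were in type VI collagen, the beaded filament that links cells to the surrounding matrix. Col6a1 (row 17242177, chromosome 10) read 9.60 and 9.91 in control and 9.15 and 9.17 with decitabine. The difference was −0.59 ± 0.14, a 1.51-fold lower level (95% confidence interval −0.94 to −0.25, adjusted p = 0.191). Col6a2 (row 17242150), its immediate neighbour among protein-coding genes, read 8.17 and 8.40 in control and 7.77 and 7.58 with decitabine. Both treated arrays were again below both controls, by −0.60 ± 0.13, or 1.52-fold (interval −0.95 to −0.26, adjusted p = 0.185). With the intensity trend both genes passed (adjusted p = 0.00261 and 0.00466), as they did among genes above the median level (0.0287 and 0.0265).

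A separate Col6a1 row showed the same order, at 6.75 and 7.19 in control and 6.17 and 5.99 with decitabine, a difference of −0.89. A row that the platform assigns jointly to Col6a1, the ribosomal protein gene Rps21 and others gave −0.17 and was not used. The chain that completes the classical type VI molecule, Col6a3, was at −0.08 ± 0.10, with overlapping groups at 5.43 and 5.55 in control and 5.45 and 5.37 with decitabine. The alternative chains Col6a4, Col6a5 and Col6a6, which are immediate neighbours on chromosome 9, were at −0.0039 ± 0.23, 0.08 ± 0.28 and 0.05 ± 0.10. Whether the differences of Col6a1 and Col6a2 departed from that of Col6a3 was not tested. An exact two-sided permutation test of a single value on these arrays cannot give a p below 0.333.

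**Figure D3:**
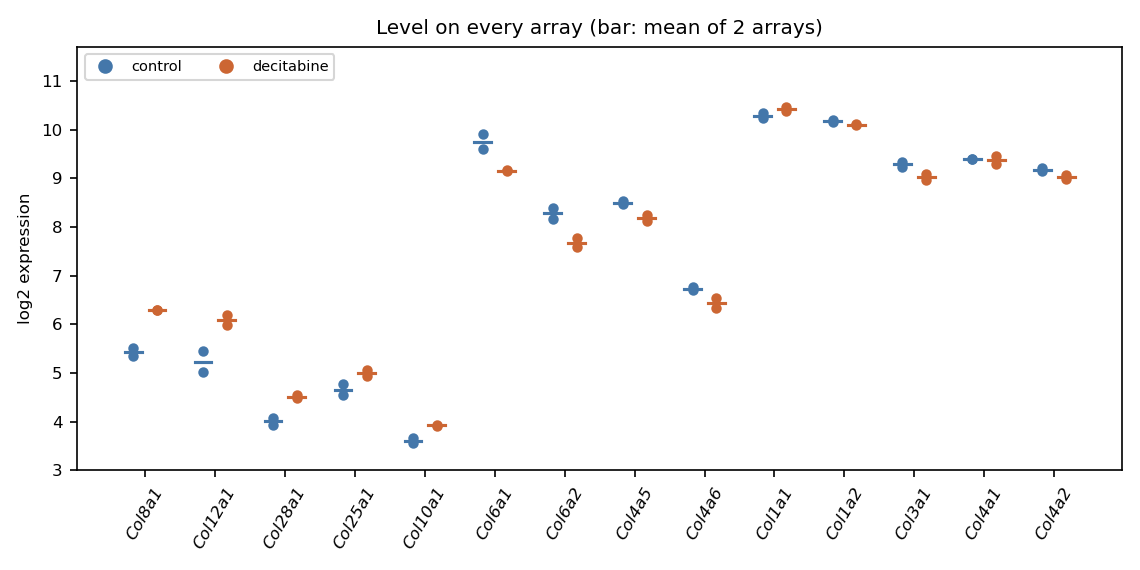
Log2 expression (y axis) on each control array (blue) and each decitabine array (orange), with a bar at the mean of 2 arrays, for the 9 chains with an unadjusted p under 0.05 and for Col1a1, Col1a2, Col3a1, Col4a1 and Col4a2. Col8a1 stands at 6.30 on both decitabine arrays against 5.51 and 5.35 in control, and Col6a1 at 9.15 and 9.17 against 9.60 and 9.91.

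The other chains of this class had smaller or less repeatable differences. Of 9 FACIT chains 6 were positive, with a median of 0.18. These included Col16a1 (0.19 ± 0.10), whose treated arrays at 6.43 and 6.44 lay above controls at 6.30 and 6.20, and Col9a2, Col9a3 and Col20a1, whose groups overlapped. Col14a1 (−0.21 ± 0.12) and Col9a1 (−0.15 ± 0.11), likewise FACIT chains, were lower on both decitabine arrays. The anchoring fibril chain Col7a1 was at −0.05 ± 0.19 and the hemidesmosome chain Col17a1 at −0.07 ± 0.11. The multiplexins Col15a1 and Col18a1, whose C-terminal fragments are known as inhibitors of vessel growth, were at 0.0045 ± 0.15 and 0.09 ± 0.13.

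For several chains the decitabine arrays lay further apart than the groups did. Decitabine replicate 2 was above replicate 1 for 30 of the 44 chains (68.2%), beside 48.3% of all genes, and for 16 of the 18 chains not above the median level of all genes (88.9%), beside 56.8% of all such genes. Over all 11090 genes not above that level, the median of replicate 2 minus replicate 1 was 0.05, and over the 18 chains it was 0.18. The widest gap was in Col6a5, at 3.64 and 4.46, followed by Col6a4 at 4.18 and 4.83 and Col20a1 at 5.60 and 6.11. Across the 44 chains the median absolute gap was 0.12 between control arrays and 0.14 between decitabine arrays, as it was over all genes. The part of these gaps in the differences above was not tested.

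The intervals bound what the arrays could show. For 42 of the 44 chains the 95% confidence interval of the difference lay inside a 2-fold change in either direction, and 96% of all genes did so. The exceptions were Col8a1 and Col12a1. For 32 chains (72.7%) it lay inside a 1.5-fold change, beside 69.3% of all genes. The number of arrays limited this precision, and the intervals come from a variance model without an intensity trend.

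**Figure D4:**
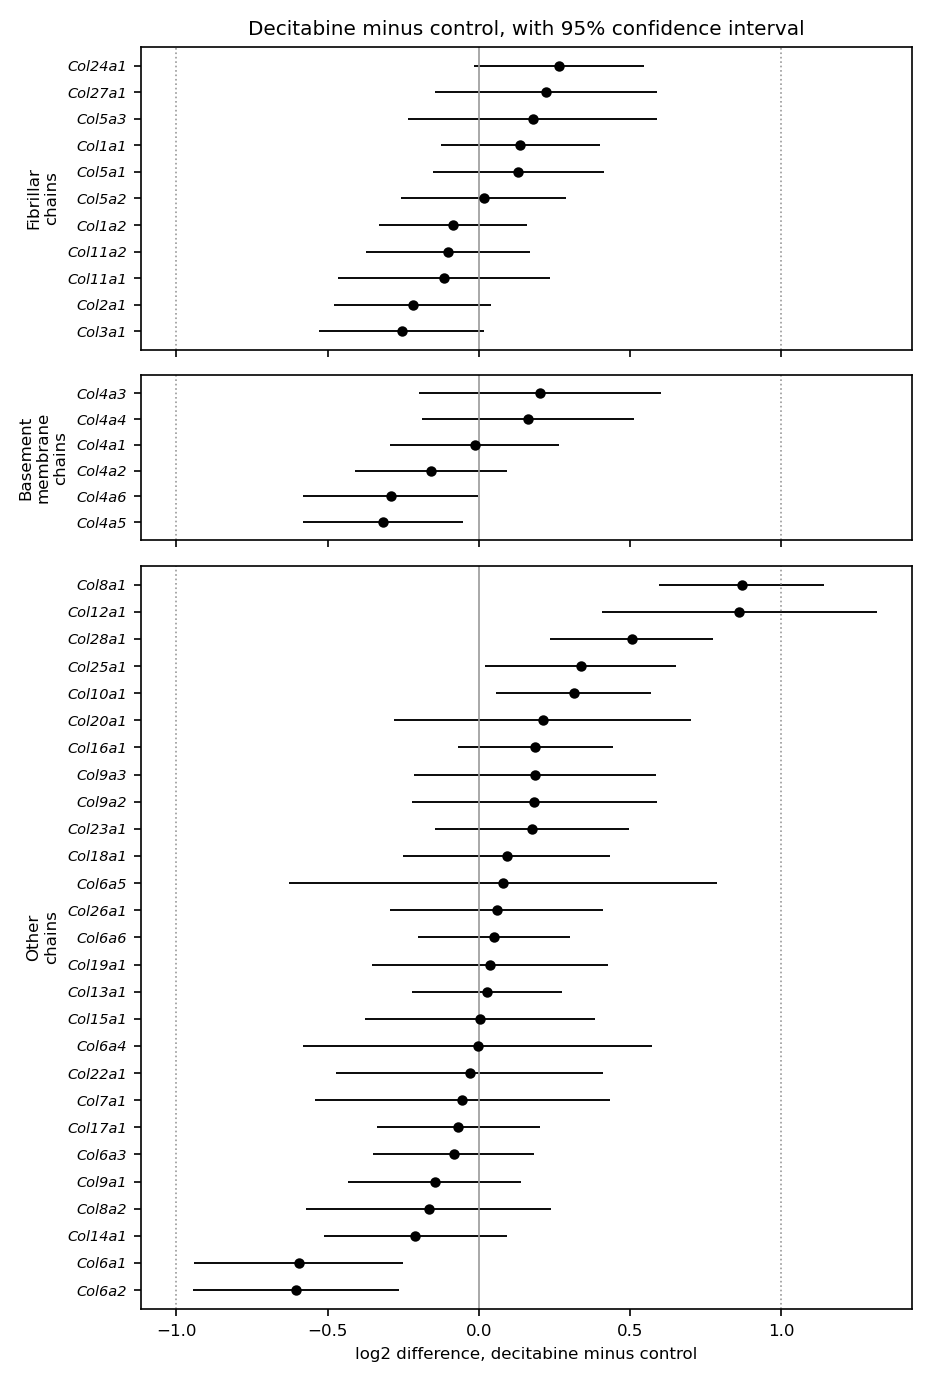
Log2 difference, decitabine minus control (x axis), of each chain with its 95% confidence interval from limma (horizontal line), by class, with dotted lines at a 2-fold change. The intervals of Col8a1 (0.60 to 1.14) and Col12a1 (0.41 to 1.32) reach beyond a 2-fold change, and those of the fibrillar chains stay inside it.

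Mammalian DNA methylation sits mostly on CpG dinucleotides, and promoter sequences of 4 chains with an unadjusted p under 0.05 are given with each CpG in capitals. They are the 250 bases before the transcription start, read 5′ to 3′ on the gene's strand, from RefSeq on GRCm38.p6. Col8a1 and Col10a1 are shown for positive differences and the neighbours Col6a1 and Col6a2 for negative ones. Col28a1, Col25a1, Col4a5 and Col4a6 are not printed because their windows overlap the RefSeq span of their own gene, and no window of Col12a1 was used here. In 300 bases Col28a1 has 0 CpG, and Col25a1 has 23 and is CpG-rich by the limits given below, with a ratio of 0.86. The Col8a1 window is chr16:57754738-57754987 (minus strand), that of Col10a1 chr10:34389731-34389980 (plus), that of Col6a1 chr10:76726045-76726294 (minus) and that of Col6a2 chr10:76623631-76623880 (minus).
Col8a1: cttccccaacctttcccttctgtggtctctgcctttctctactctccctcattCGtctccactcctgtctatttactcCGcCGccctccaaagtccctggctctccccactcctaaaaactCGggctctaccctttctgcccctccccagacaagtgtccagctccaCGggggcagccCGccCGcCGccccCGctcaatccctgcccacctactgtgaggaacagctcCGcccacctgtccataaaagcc
Col10a1: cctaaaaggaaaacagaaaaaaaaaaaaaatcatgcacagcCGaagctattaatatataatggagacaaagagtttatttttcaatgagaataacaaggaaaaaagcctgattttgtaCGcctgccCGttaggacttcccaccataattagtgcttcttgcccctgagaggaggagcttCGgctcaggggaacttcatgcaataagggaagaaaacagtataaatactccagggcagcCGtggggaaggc
Col6a1: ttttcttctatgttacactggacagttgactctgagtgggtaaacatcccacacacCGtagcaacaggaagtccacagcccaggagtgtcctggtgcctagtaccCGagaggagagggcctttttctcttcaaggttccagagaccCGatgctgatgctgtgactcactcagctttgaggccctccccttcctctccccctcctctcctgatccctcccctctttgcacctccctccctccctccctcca
Col6a2: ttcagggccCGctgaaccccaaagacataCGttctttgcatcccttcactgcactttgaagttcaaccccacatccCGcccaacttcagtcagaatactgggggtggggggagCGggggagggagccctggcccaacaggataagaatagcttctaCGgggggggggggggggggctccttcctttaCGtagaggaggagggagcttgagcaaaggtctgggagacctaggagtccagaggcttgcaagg

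The Col8a1 sequence holds 10 CpG dinucleotides with a GC content of 60.8%, and that of Col10a1 holds 5 with 41.6%. The Col6a1 and Col6a2 sequences hold 3 and 6, at 56% and 59.2%. The letters GGGCGG, the GC box bound by Sp1 family factors, occur on either strand 4 times in Col8a1, 1 time in Col6a2 and in neither of the others, and TATAAA occurs 1 time, in Col10a1. The letters CCAAT were found in none of these windows. The letters GGGCGG themselves hold a CpG, and the motifs searched share no bases in these windows. A match is a description of the sequence and not evidence of binding.

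RefSeq windows of 300 bases, from 250 before to 50 after the start, could be matched for 35 of the 44 chains and for 16990 of the genes tested. Among the 35, 11 (31.4%) were CpG-rich, with GC content over 50% and an observed over expected CpG ratio over 0.6, compared with 45.8% of all genes. The median number of CpG was 12 in the chains and 13 in all genes. For many of the 35, Col28a1, Col25a1, Col4a5 and Col4a6 among them, the bases before the start overlap the gene's own RefSeq span. All were kept in these shares, and such overlap was not counted over all genes. GGGCGG was found on either strand in 62.9% of the chains' windows and 46.8% of all, CCAAT in 34.3% and 38.6%, and TATAAA in 14.3% and 12.9%. The CpG-rich chains had a median difference of 0.04, with 7 of 11 positive, and the 24 others one of 3.15e-04, with 12 positive. Over all genes these medians were 4.725e-04 and 0.0061. The 4 chains furthest from 0 among those with a window were outside the CpG-rich set, as were 24 of the 35 in all. Their ratios were 0.54 for Col8a1, 0.13 for Col6a1 and 0.25 for Col6a2, with 0 CpG in the window of Col28a1. These 4 were picked by their differences, and no window of Col12a1 was used. A link between CpG content and difference was not tested.

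**Figure D5:**
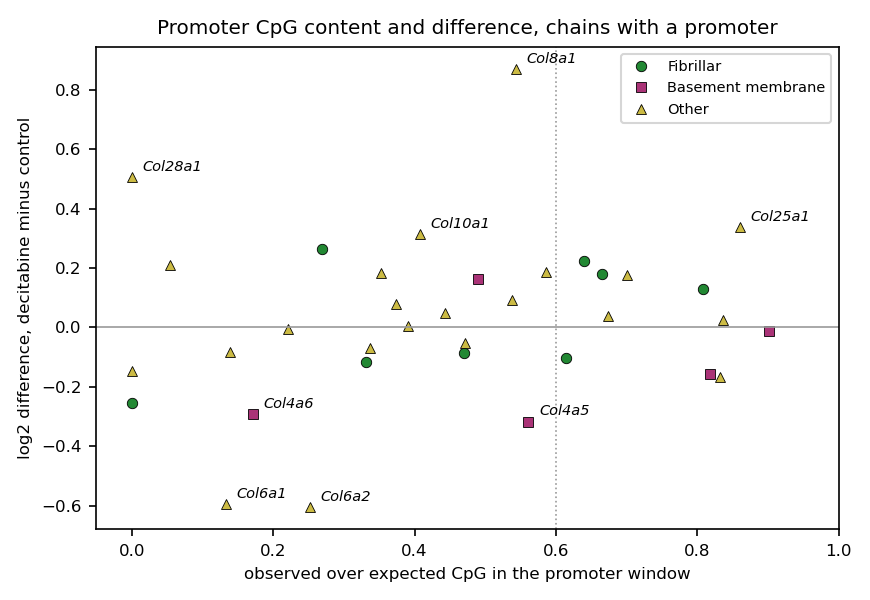
Observed over expected CpG ratio of the 300-base promoter window (x axis) against the log2 difference, decitabine minus control (y axis), for the 35 chains with a RefSeq window, by class. Chains on both sides of the dotted line at 0.6 lie around 0. Col8a1, Col28a1, Col6a1 and Col6a2 fall to its left, as do 24 of the 35 chains in all.

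Genes that make, cut, bind and break down collagen were read on the same arrays from lists of 79 genes as entered, of which 73 were measured. None of them passed over all genes in limma, and before adjustment 10 (13.7%) were higher with p under 0.05 and 10 (13.7%) lower, where 7.34% and 6.97% of all genes were. With the intensity trend 5 (6.85%) passed as higher and 5 (6.85%) as lower, where 3.68% and 3.6% of all genes did.

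Enzymes and chaperones that modify and fold the chains in the endoplasmic reticulum were mostly negative. Of 16 measured, 13 lay below 0, with a median of −0.11, and 1 was higher and 4 lower with an unadjusted p under 0.05. The prolyl 3-hydroxylase gene P3h2 read 7.34 and 7.24 in control and 7.67 and 7.56 with decitabine (0.32 ± 0.11, adjusted p = 0.287). The lysyl hydroxylase gene Plod1 read 7.66 and 7.62 in control and 7.36 and 7.37 with decitabine (−0.28 ± 0.10, adjusted p = 0.307). The groups of P3h2 and Plod1 did not overlap. The other P3h genes, named after their values were seen, were lower on both decitabine arrays. They were P3h3 (−0.43 ± 0.16, adjusted p = 0.328), P3h4 (−0.32 ± 0.12, adjusted p = 0.345) and P3h1 (−0.17 ± 0.10, adjusted p = 0.4915). With the intensity trend 1 of the 16 passed, P3h4 as lower (adjusted p = 0.04775), where 3.68% of all genes passed as higher and 3.6% as lower. The 8 secretion genes had a median of −0.08 with none past an unadjusted p of 0.05, led by the ubiquitin ligase adaptor gene Klhl12 (−0.24 ± 0.11) and the cargo receptor gene Mia3 (−0.14 ± 0.10).

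Among 11 genes of propeptide removal and cross-linking the median was −0.13, with 2 higher and 2 lower before adjustment (p under 0.05). Pcolce2, an enhancer of procollagen C-proteinase, read 6.95 and 7.17 in control and 7.63 and 7.63 with decitabine (0.57 ± 0.12, adjusted p = 0.170; 0.00614 with the intensity trend). The procollagen N-proteinase gene Adamts14 read 8.004 and 7.84 in control and 7.60 and 7.48 with decitabine (−0.38 ± 0.11, adjusted p = 0.254; 0.0303 with the trend). Of 15 fibril-associated partners, 1 was higher and 3 lower with an unadjusted p under 0.05, with a median of 0.02. The fibronectin gene Fn1 was at 0.48 ± 0.10 (adjusted p = 0.163) and the matrilin gene Matn2 at −0.68 ± 0.12 (adjusted p = 0.142). With the intensity trend 1 of the 15 (6.67%) passed as higher and 2 (13.3%) as lower, where 3.68% and 3.6% of all genes did. The higher one was Fn1 (adjusted p = 1.41e-04), and the lower ones were Matn2 (0.0116) and Ogn (0.0081). Ogn, named after its value was seen, was at −0.755 ± 0.17 (adjusted p = 0.1898 without the trend). Collagen receptors had a median of −0.01 over 9 genes, with the endocytic receptor gene Mrc2 at −0.32 ± 0.12 (adjusted p = 0.332) and the integrin gene Itga1 at −0.49 ± 0.21 (adjusted p = 0.376).

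The collagen breakdown list, which holds proteases and their inhibitors, had a median of 0.39 over 14 measured genes, with 11 positive. Before adjustment 6 (42.9%) had a p under 0.05 as higher and 0 as lower, where 7.34% and 6.97% of all genes did. The metalloproteinase inhibitor gene Timp3 read 9.80 and 9.80 in control and 10.29 and 10.22 with decitabine (0.45 ± 0.10, adjusted p = 0.176). Timp1 read 8.58 and 8.53 in control and 9.12 and 8.97 with decitabine (0.48 ± 0.11, adjusted p = 0.184). With the intensity trend 3 of the 14 (21.4%) passed as higher and 0 as lower, where 3.68% and 3.6% of all genes did. The 3 were the inhibitor genes Timp1, Timp2 and Timp3 (adjusted p = 0.00289, 0.00639 and 8.39e-04), Timp2 being named after its value was seen. The proteases, named likewise, held the other higher genes: the neutrophil collagenase gene Mmp8 (0.46 ± 0.14, adjusted p = 0.266), the gelatinase gene Mmp9 (0.39 ± 0.11, adjusted p = 0.248) and the cathepsin gene Ctsk (0.46 ± 0.13, adjusted p = 0.251). The gelatinase gene Mmp2 was at 0.44 ± 0.17 (adjusted p = 0.355), the collagenase gene Mmp13 at 0.07 ± 0.13 and the membrane collagenase gene Mmp14 at 0.05 ± 0.10. The 3 negative genes of the list were Mmp1a (−0.33 ± 0.14, adjusted p = 0.393), Mmp1b (−0.21 ± 0.30) and Mmp16 (−0.13 ± 0.10). Of these, Mmp1a and Mmp1b lay below the 25th percentile of level.

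Markers of cell types that make or surround collagen were set beside these values. Fibroblast markers other than collagens had a median of 0.29 over 14 genes, with 10 positive. Before adjustment 5 (35.7%) were higher with p under 0.05 and 2 (14.3%) lower, and the shares over all genes, which hold for the marker counts that follow too, were 7.34% and 6.97%. Their summed linear level was 13102 and 12228 in control and 15131 and 15823 with decitabine. Such sums, here and below, mostly follow the brightest rows of a list and can move against its median. The surface antigen gene Thy1 was at 1.48 ± 0.17 (adjusted p = 0.0762) and the smooth muscle actin gene Acta2 at 0.72 ± 0.10 (adjusted p = 0.106). The 2 lower genes, named after their values were seen, were Dpt (−0.30 ± 0.10, adjusted p = 0.306) and Pdgfra (−0.28 ± 0.10, adjusted p = 0.315). Of these, Pdgfra passed with the intensity trend (adjusted p = 0.00976). Levels within the list ran from bright to dim. The small proteoglycan gene Dcn lay at 11.78 and 11.74 in control and 11.75 and 11.82 with decitabine. In control, Lum lay at 2.34 and 2.86 and Fap at 3.82 and 3.39. The part of these markers in the collagen differences was not tested.

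The 17 epithelial markers had a median of 0.14 with 12 positive, and 5 were higher and 1 lower with an unadjusted p under 0.05. Their summed levels were 7709 and 7623 in control and 7474 and 7340 with decitabine. The mesothelin gene Msln was at 0.86 ± 0.10 (adjusted p = 0.0762) and the keratin gene Krt14 at 0.79 ± 0.10 (adjusted p = 0.0908). The lower one was Wt1, at 10.78 and 10.86 in control and 10.56 and 10.53 with decitabine (−0.28 ± 0.10, adjusted p = 0.322; 0.0106 with the intensity trend). The uroplakin gene Upk3b of mesothelium, named after its value was seen, was at −0.19 ± 0.10 (adjusted p = 0.446; 0.0254 with the trend). Leukocyte markers had a median of 0.04 over 15 genes and summed levels of 348.5 and 324.4 in control and 370.3 and 387.2 with decitabine, and 2 were higher and 0 lower with an unadjusted p under 0.05, led by Cd68 (0.45 ± 0.10) and Itgam (0.50 ± 0.11). The pan-leukocyte gene Ptprc lay at 3.01 and 3.07 in control. Endothelial markers had a median of 0.11 over 10 genes, likewise with 2 higher and 0 lower at that threshold, with Kdr at 0.38 ± 0.12 and Cdh5 at 0.43 ± 0.14, and summed levels of 310.4 and 303.6 in control and 318.9 and 314.7 with decitabine. Of 9 chondrocyte and osteoblast markers, whose median was 0.04 and of which 1 was higher and 0 lower with an unadjusted p under 0.05, the cartilage transcription factor gene Sox9 was at 0.64 ± 0.10 (adjusted p = 0.127) and the phosphatase gene Alpl at −0.23 ± 0.10 (adjusted p = 0.378; 0.0487 with the intensity trend). Their summed levels were 1318 and 1240 in control and 1338 and 1409 with decitabine. No marker of these lists passed over all genes in limma without the trend. With it, 5 fibroblast markers passed as higher and 1 as lower, 5 epithelial markers as higher and 2 as lower, 1 leukocyte marker as higher, and 1 chondrocyte and osteoblast marker in each direction, where 3.68% of all genes passed as higher and 3.6% as lower. Among them were Thy1 (adjusted p = 2.39e-04), Acta2 (3.54e-05) and Msln (4.66e-04).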

How the data were processed

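Column-purified total RNA of each sample was hybridised to its own Affymetrix array (Mouse Gene 2.0 ST, 4 in all), per the labels' protocols. The authors deposited 1 value per array row, read here as log2 from the range; summarisation, background correction and normalization are not given in the sources used here. Of 41345 rows, 23521 had 1 gene symbol in the platform table, 1814 several and 16010 none here; only the first were used. For genes with several rows the one with the highest mean was kept (3 chains had over 1 row). All 44 chains matched a RefSeq gene table of GRCm38.p6, used for names and neighbours.

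The comparison was fitted in R 4.3.3 by limma 3.58.1 (lmFit, then eBayes with no trend; two-sided; no covariates; Benjamini-Hochberg over 22180 genes, threshold 0.05), with no filter on dim genes, in code tested on simulated data. Errors are limma's standard errors. Values on each array are given for chains with an unadjusted p under 0.05, the 2 chains of highest mean per class, and Col1a1, Col1a2, Col3a1, Col4a1 and Col4a2; those of Col6a3, Col16a1, Col4a3, Col4a4, Col6a4, Col6a5 and Col20a1 were added after they were seen. Each list names its 2 members of smallest p. Wt1, Krt18, Krt19, Epcam, Pax8, Dcn, Lum, Fap and Ptprc were added after their values were seen, to check the labelled cells. Members, classes and lists were chosen with earlier results of these data known. Alternatives were quantile normalization, centring, robust eBayes, an intensity trend, filters on level (25th percentile, median), averaging of a gene's rows, the replicate block, other class limits and leaving out each array.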

Additional observations from a re-analysis of the deposited data

How the results depend on the processing

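The count of chains called over all genes, 0 in limma, became 1 with a filter at the 25th percentile of level (43 chains tested), 4 with one at the median level (26 tested) and 5 with an intensity trend, and remained 0 when each array was left out. The count of all genes called, 32, became 51 with centred arrays, 215 and 1251 under these filters, 1615 with the trend and 18 with robust eBayes, and was 0 without any 1 array. Chains higher at an unadjusted p under 0.05, 5, numbered 3 above the median level and 3 to 10 with an array left out; chains lower, 4, numbered 2 to 4 with an array left out, 6 above the median level, 6 with the trend and 5 with the 25th percentile filter. The fibrillar median, 0.02, was 0.13 above the median level, where 9 of its chains were tested, and ranged from −0.0465 to 0.042 with an array left out. The basement membrane median was −0.22 above the median level (4 tested), −0.0043 with multiplexins and −0.15 to −0.058 with an array left out, and that of the other chains −0.043 to 0.19. Col4a1 ranged from −0.10 to 0.0734 and was the 1 named chain of 14 whose sign turned. The cause of these moves was not tested. The filters tested fewer genes and also refitted the variance model on the genes kept. The standard error of Col8a1, 0.1065 in the main fit, was 0.0873 in the fit above the median level.

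Same-numbered arrays did not deviate together (r = −0.018 across genes), so the numbers were not taken as pairs; with the replicate block 0 of all genes and 0 chains were called in limma, and before adjustment 4 chains were higher with p under 0.05 and 3 lower. A lone array left in a group was assumed to vary like the other group. Signal over background could not be set, which limits what dim chains can show.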
